A study of Drosophila melanogaster with 4 samples.

Results

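The genes described here are 10 regulators of programmed cell death of Drosophila melanogaster, namely rpr, hid, grim, skl, Diap1, Dronc, Drice, Dcp-1, Debcl and Buffy, chosen by name from 13945 protein-coding genes on the chromosome arms. For each of them every Doublesex-GFP peak summit inside the gene or within 5 kb of it was taken, and the stretches between the neighbouring genes hid, grim, rpr and skl were added. That gave 52 of the 9154 reproducible summits, of which 25 lay within 5 kb of a member and 31 in the interval of 272198 bp from hid to skl, with 4 in both sets.

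Binding of Doublesex was mapped by ChIP-seq with an anti-GFP antibody in whole prepupae (24 hour) of both sexes mixed, from the transgenic line dsx-GFP, in which GFP is fused to the C terminus of dsx. The 4 samples are biological replicates of 1 group, so no conditions were compared. The labels used here do not say whether the tagged copy adds to or replaces the endogenous gene, and with whole animals a weak summit cannot be told apart from strong binding in few cells. Each replicate and the pool of replicates 2, 3 and 4 has a list of 30000 summits with a signal value, and the list of reproducible summits is the subset that the authors kept at their threshold on the irreproducible discovery rate. The signal value is the authors' own score and is not normalized between lists, so replicates were compared by rank, where rank 1 is the strongest summit of a list. Read depth per sample was unknown.

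Doublesex is the transcription factor that ends the sex determination cascade of the fly, and its male and female proteins share a DNA-binding domain. Cell death in flies is set off by Reaper (rpr), Hid, Grim and Sickle (skl), proteins that bind and block the inhibitor of apoptosis Diap1. Diap1 otherwise restrains the initiator caspase Dronc and the effector caspases Drice and Dcp-1, and Debcl and Buffy are the Bcl-2 family proteins of the fly. In the prepupa, larval tissues are removed by such death under the control of the steroid hormone ecdysone.

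Of the 10 genes, 7 had a reproducible summit within 5 kb, against 52.4% of all protein-coding genes. The genes without one were grim, skl and Dronc. A reproducible summit inside the gene was present in 4 (hid, Diap1, Dcp-1 and Debcl), against 16.4% of all coding genes. A summit within 1 kb of a transcription start was present in 6 (rpr, hid, Diap1, Drice, Dcp-1 and Debcl), against 26.2%. In 5 genes (rpr, hid, Diap1, Drice and Debcl) at least 1 reproducible summit was supported in all 4 replicates, meaning that each listed a summit at most 100 bp away among its 10000 strongest, against 38.5%. In the pooled list 8 of the 10 had a summit within 5 kb, Dronc in addition, against 66.7%. The number of reproducible summits within 5 kb was 12 at Diap1, 4 at Debcl, 2 each at rpr, hid, Drice and Dcp-1, and 1 at Buffy, with a median of 2 over the 10 genes and 1 over all coding genes. The median length of the 10 genes was 2379 bp, against 2166 bp for all coding genes. No sampling test was made on these counts, since the genes were chosen by name.

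The order of the genes by the strongest summit within 5 kb was the same in the 4 replicates for the first 3 genes, and it depended on the distance allowed. Debcl came first, with ranks of 163, 186, 253 and 121 in replicates 1 to 4 (181 ± 55.2, SD, n = 4). Diap1 followed with 432, 346, 315 and 254 (337 ± 74.1), and hid with 711, 702, 419 and 424 (564 ± 165). In each of the 4 replicates Debcl ranked ahead of Diap1 and Diap1 ahead of hid, although the ranges of Diap1 and hid overlapped. Drice averaged 2081 ± 1661 (1255 without replicate 3) and rpr 3238 ± 1784, and their ranges overlapped. Dcp-1 averaged 6091 ± 2122, Buffy 6446 ± 2769 and Dronc 9070 ± 4813, and these 3 did not differ beyond their spread. The genes grim and skl had a summit in replicate 4 alone, at ranks 24854 and 22448. The rank of Debcl came from a summit nearer to the gene Fmo-2, and that of Drice, in 3 of the 4 replicates, from one at the promoter of Etfb. That of Dcp-1, in replicates 1, 3 and 4, came from a summit near the start of the neighbour wmd. For Buffy it came, in all 4, from one near the start of CG13197, beyond the end of the gene. Within 2 kb of the genes the mean rank of Debcl was 7714 and that of rpr 6767, behind Diap1, hid and Drice, and inside the genes that of Debcl was 8064 and that of hid 6471. The mean rank of Dcp-1 was 8088 within 2 kb, and Buffy had no rank over all 4 replicates at that distance. Set among all coding genes by the pooled list, 2.42% had a stronger summit within 5 kb than Debcl, 6.32% than Diap1, 7.34% than hid, 18.5% than Drice and 26.1% than rpr.

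**Figure D1:**
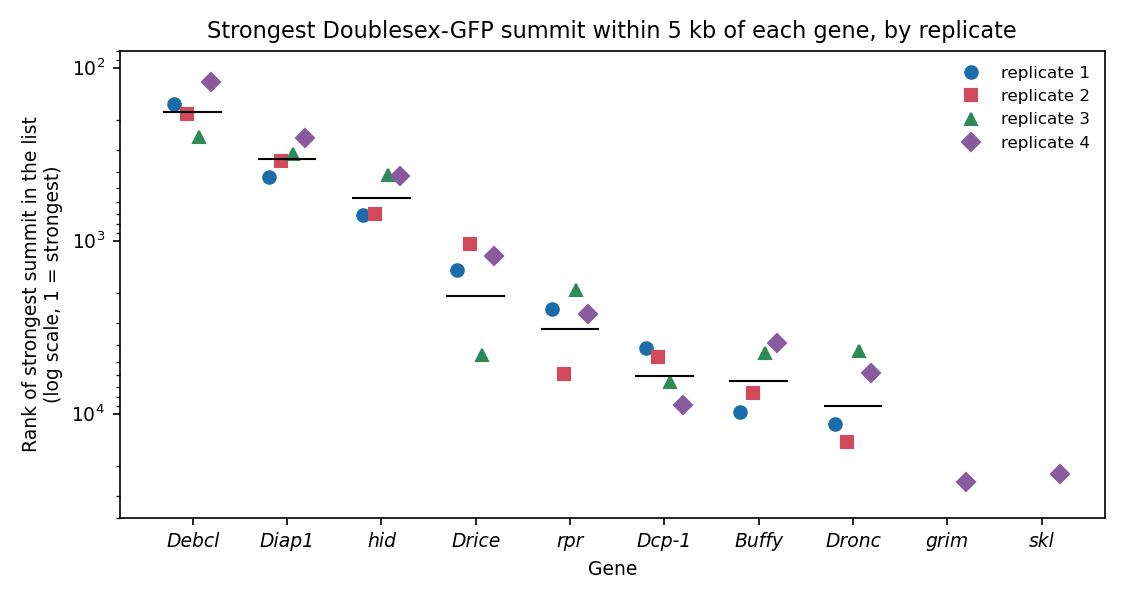
Rank of the strongest Doublesex-GFP summit within 5 kb of each gene (log axis, rank 1 is the strongest) in replicates 1 to 4, with a line at the mean of 4 replicates. Debcl, Diap1 and hid rank ahead of 1000 in all 4 replicates, while grim and skl have a point for replicate 4 alone.

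The strongest summit at hid lay just upstream of its start, and the stretch between hid and grim held most of the summits of the cluster. Hid, an antagonist of Diap1, is transcribed leftward from 3L 18185641 (FBgn0003997, dm6, 3L 18167745 to 18185641, minus strand). Its promoter summit at 3L 18185962, 321 bp upstream of the start, had a pooled signal value of 1951.5 and ranked 501. A second reproducible summit lay in an intron, 11841 bp downstream of the start, with a signal value of 361 and ranks of 8176, 10030, 4583 and 5914 in replicates 1 to 4 (7176 ± 2413). The promoter summit was thus among the strongest 1000 of every replicate, and the intronic one was a weaker site found in all 4. The pooled list held 21 summits within 5 kb of hid, of which 2 were reproducible.

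Both hid sequences are shown because they contrast in the Doublesex core ACAATGT, which was sought on both strands within 50 bp of each summit. They are the 101 bases around the summit on the plus strand, 5′ to 3′, from the RefSeq copy of dm6, and capitals here and below mark a match of the core, of the related ACAAAGT or of the longer degenerate Doublesex consensus on either strand. The intronic summit has the core and the stronger promoter summit has none of these motifs.
hid promoter summit (chr3L:18185912-18186012): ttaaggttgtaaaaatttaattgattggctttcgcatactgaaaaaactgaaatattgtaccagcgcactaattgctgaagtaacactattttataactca
hid intron summit (chr3L:18173750-18173850): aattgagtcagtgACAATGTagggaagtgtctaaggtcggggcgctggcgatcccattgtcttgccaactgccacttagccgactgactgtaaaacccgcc

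The upstream side of hid, the 117077 bp between hid and grim, was dense in Doublesex-GFP summits. Other coding genes, among them CG7320, CheA75a and CG5103, start in this stretch, so distances from hid give position only. It held 27 reproducible summits, 23.1 per 100 kb, against 7.47 per 100 kb over arm 3L and 6.84 over all arms. Cut into windows of the same length, the arms gave 1141 windows with a median of 7 summits and a highest count of 46, and 97.6% of them held fewer than 27. Among the strongest 10000 summits of each replicate, 31, 29, 36 and 33 fell in this stretch in replicates 1 to 4 (32.3 ± 2.99), or 27.5 ± 2.55 per 100 kb, against 8.24 per 100 kb of arm 3L on average. The density was above that of the arm in all 4 replicates, replicate 1 included, which is not among the inputs of the reproducible list.

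These 27 summits were spread unevenly over the stretch. The first was the hid promoter summit, and 25 lay within 60108 bp upstream of hid, followed by an empty 28613 bp and then 2 more, the last at 95745 bp. The median spacing was 1956 bp. A dense run lay from 46817 to 60108 bp upstream of hid, near the middle of the stretch, where the nearest coding start was that of CheA75a. For most of the 27 the nearest coding start was that of CG7320, CheA75a or CG5103, not that of hid. By annotation 23 of the 27 were intergenic and 4 lay within 500 bp of a start, which were those of hid and of the long noncoding RNAs CR45234 and CR45936, with a pair of summits at CR45936. Support in all 4 replicates was found for 18 of the 27 (66.7%), against 53.2% of all reproducible summits. Among the strongest 1000 of the pooled list were 8 of the 27 (29.6%), against 10.9% of all reproducible summits. The strongest, 7377 bp upstream of hid, had a signal value of 1963 and ranks of 713, 735, 338 and 554 in replicates 1 to 4 (585 ± 183). Next came the hid promoter summit and one 50380 bp upstream, with a signal value of 1940 and ranks of 408, 549, 360 and 692 (502 ± 150). The latter lay nearer to the start of CheA75a, at 16067 bp. A summit 5037 bp upstream of hid had a signal value of 1887 and ranks of 581, 375, 757 and 667 (595 ± 163). These upstream summits ranked as high as that at the hid promoter, and their ranges over the replicates overlapped with its own.

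**Figure D2:**
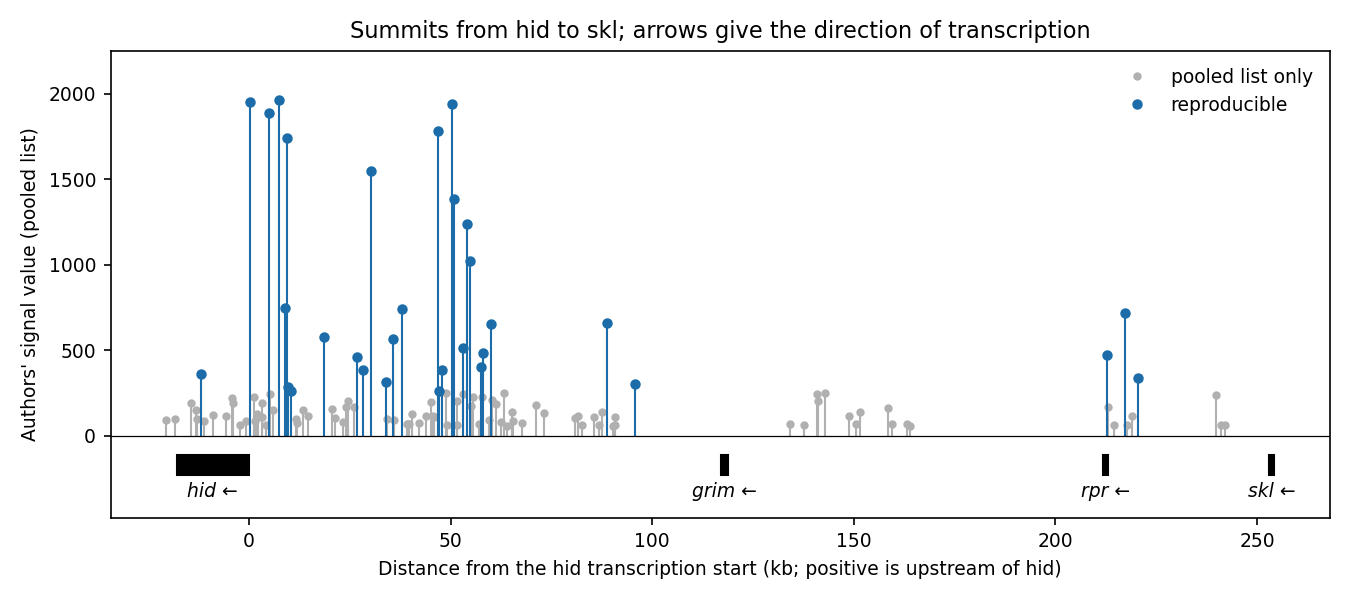
Pooled signal value of each summit (vertical axis) by its distance in kb from the hid start, upstream to the right, with reproducible summits in blue, those of the pooled list alone in grey and the genes as black boxes. Of 27 reproducible summits between hid and grim, 25 lie within 60108 bp of hid, and the stretch from grim to rpr holds grey summits alone.

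None of the strongest 8 summits upstream of hid carried the Doublesex core within 50 bp, but 8 summits are too few to tell this from the share of all reproducible summits. Of the 27 summits 1 had the core (3.70%, exact 95% interval 0.0937 to 19.0%), against 8.06% of all reproducible summits. It lay 37967 bp upstream, with a signal value of 743 and ranks of 2639, 2402, 2902 and 3003 in replicates 1 to 4 (2737 ± 271). The related ACAAAGT was found at 1 other, at the start of the long noncoding RNA CR45234, where the signal value was 258. The strongest 8 were rich in A and T, with a median of 28.2% G and C over 101 bp (range 23.8 to 37.6%), against 32.7% for the strongest 1000 summits of all and 37.6% for all reproducible summits. The sequences show the strongest summit of the stretch, which lacks these motifs, then the one with the core and the one with ACAAAGT.
7377 bp upstream of hid (chr3L:18192968-18193068): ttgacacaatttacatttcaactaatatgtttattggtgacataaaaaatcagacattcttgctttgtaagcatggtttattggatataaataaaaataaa
37967 bp upstream of hid (chr3L:18223558-18223658): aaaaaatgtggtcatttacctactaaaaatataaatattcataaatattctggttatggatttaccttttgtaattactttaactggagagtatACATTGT
start of lncRNA CR45234 (chr3L:18196141-18196241): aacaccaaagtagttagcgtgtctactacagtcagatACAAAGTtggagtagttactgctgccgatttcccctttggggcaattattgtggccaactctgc

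At grim and on its upstream side the picture was the opposite. Grim, a further Diap1 antagonist (FBgn0015946, 3L 18302719 to 18304417, minus strand), had no summit within 5 kb in the pooled list or in replicates 1, 2 and 3, and 1 in replicate 4, 2988 bp upstream. The 93117 bp between grim and rpr held 0 reproducible summits. Of 1434 windows of that length on the arms 311 (21.7%) also held 0, and the median was 5. The pooled list had 12 summits there, the strongest at rank 9371, not far beyond rank 9154, where the reproducible list ends. The replicates had 0, 2, 18 and 18 among their 30000. Among the strongest 10000 the counts were 0, 0, 2 and 3. Replicates 3 and 4 thus had weak summits in this stretch where replicate 1 had none. The hid to grim stretch was denser than the grim to rpr stretch in 4 of 4 replicates, by 26.2 ± 1.77 summits per 100 kb (exact sign-flip permutation test over replicates, two-sided p = 0.125, the smallest that 4 pairs allow). These are the densest and the emptiest of the 3 stretches in the reproducible list, which draws on replicates 2, 3 and 4. The test therefore speaks only to repetition between replicates, and no conclusion is drawn from it. Together with the empty end of the hid to grim stretch, 117057 bp had no reproducible summit, and 147 of the 9148 distances between neighbouring reproducible summits were at least as wide, with a median of 3624 bp.

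**Figure D3:**
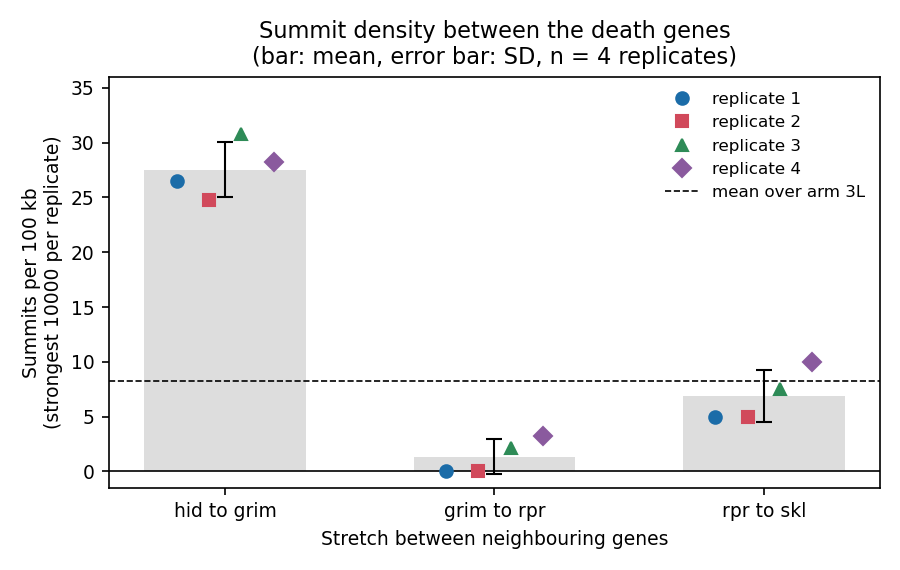
Summits per 100 kb (vertical axis) among the strongest 10000 of each replicate in the 3 stretches between hid, grim, rpr and skl, with points for replicates 1 to 4, bars for the mean and error bars for the SD. All 4 replicates lie above the mean of arm 3L (dashed) from hid to grim and below it from grim to rpr.

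Rpr had 2 reproducible summits, one at its start and a stronger one upstream. Reaper was the first of these Diap1 antagonists to be found (FBgn0011706, 3L 18397535 to 18398435, minus strand). Its promoter summit, 8 bp upstream of the start, had a signal value of 474 and ranks of 6671, 5596 and 5072 in replicates 1, 3 and 4, and replicate 2 had no summit within 100 bp. The upstream summit, at 4418 bp, had a signal value of 718 and ranks of 2475, 5875, 1942 and 8577 in replicates 1 to 4 (4717 ± 3107). In replicate 4 a summit 103 bp from it ranked 2658, so that the rank at this site depends on which of 2 close summits is matched. A further summit, 7644 bp upstream and beyond the 5 kb limit, had a signal value of 339 and was matched in replicates 3 and 4. None of the 3 carried a Doublesex motif, and the promoter and upstream sequences are given for comparison with those at hid.
rpr promoter summit (chr3L:18398393-18398493): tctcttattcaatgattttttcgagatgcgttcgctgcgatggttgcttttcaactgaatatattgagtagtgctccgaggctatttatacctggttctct
4418 bp upstream of rpr (chr3L:18402803-18402903): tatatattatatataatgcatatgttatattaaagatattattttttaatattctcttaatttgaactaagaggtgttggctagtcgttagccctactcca

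Skl, the Sickle gene (FBgn0036786, 3L 18438561 to 18439942, minus strand), had 0 reproducible and 0 pooled summits within 5 kb. Replicate 4 had 2 there, at 1455 bp upstream of the start and 4998 bp downstream of it, at ranks 22448 and 27112. The 40125 bp between rpr and skl held the 3 summits of rpr, or 7.48 per 100 kb, and the strongest 10000 summits of replicates 1 to 4 gave 2, 2, 3 and 4. That density was close to the 7.47 per 100 kb of arm 3L. The whole interval from hid to skl had 11.4 reproducible summits per 100 kb, and 82.4% of 488 windows of the same length held fewer. That density rested on the stretch from hid to grim.

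Diap1, the inhibitor that the 4 antagonists block, had more summits than any other of the 10 genes. It lies at 3L 16038410 to 16051034 on the minus strand (FBgn0260635) and has 5 annotated starts. As many as 12 reproducible summits lay within 5 kb and 8 of them inside the gene, and 0.774% of all coding genes had 12 or more within 5 kb. That share is not adjusted for length, and Diap1 spans 12625 bp, against a median of 2166 bp for all coding genes. Of the 12, 5 were supported in all 4 replicates (41.7%), against 53.2% of all reproducible summits. Of the same 12, 2 were secondary summits, within 260 bp of a stronger one, as were 7.96% of all reproducible summits. By location 6 were intronic, 2 at promoters, 2 intergenic and 1 each in a 5′ and a 3′ untranslated region.

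The strongest pair at Diap1 lay inside the gene, away from its first start. The summit 1729 bp downstream of the nearest Diap1 start, which is also 293 bp upstream of the long noncoding RNA CR43951, had a signal value of 2132.5 and ranks of 705, 730, 315 and 254 in replicates 1 to 4 (501 ± 251). The other, 669 bp downstream of an internal start (itself 4188 bp downstream of the first), had a signal value of 2118 and ranks of 432, 346, 472 and 535 (446 ± 79.1). Their ranges overlapped, and the replicates split on which was stronger, with replicates 1 and 2 placing the second ahead and replicates 3 and 4 the first. A close pair followed in strength, 744 and 945 bp upstream of a different internal start, which lies 8464 bp downstream of the first. Its stronger summit had a signal value of 1337 and ranks of 2461, 961 and 1017 in replicates 1, 2 and 3, and the weaker had 847 and ranks of 6812, 1667 and 1206 in replicates 2, 3 and 4. Neither of the pair was thus matched within 100 bp in all 4 replicates. Replicate 4 had a summit 127 bp from the stronger, and replicate 1 had one 124 bp from the weaker, at rank 1775. The misses at this site thus depend on the distance allowed for a match. A summit 5 bp downstream of the start at 4188 bp had a signal value of 737 and ranks of 1416, 3969, 2304 and 2516 (2551 ± 1059). One 1475 bp downstream of it had a signal value of 754 and ranks of 1358, 3132, 3528 and 1934 (2488 ± 1013). Within 1475 bp downstream of the start at 4188 bp there were thus 3 summits found in all 4 replicates, while no reproducible summit lay within 1 kb of the first start.

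**Figure D4:**
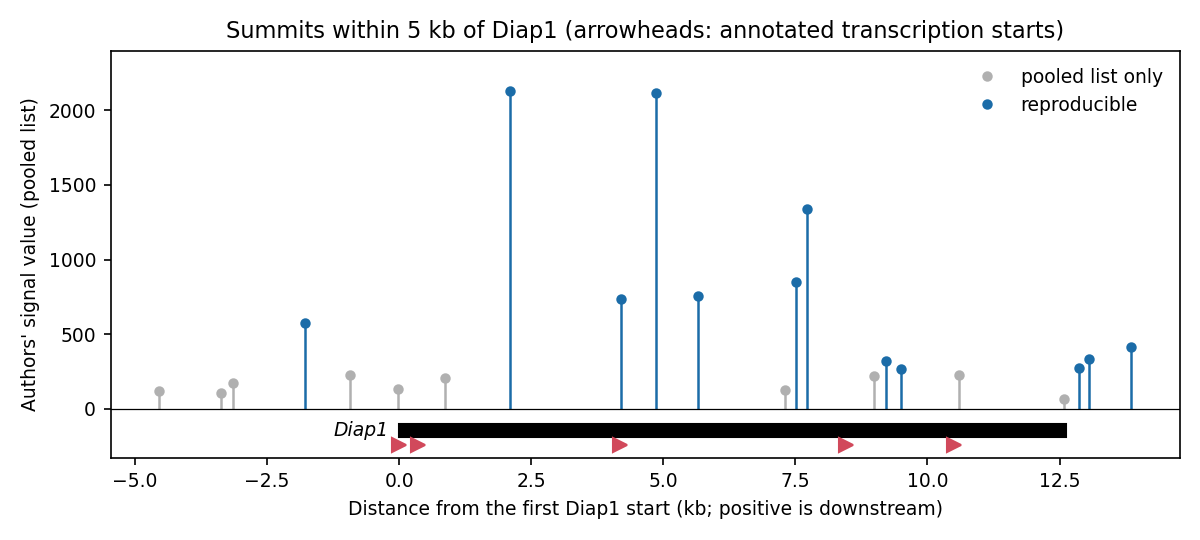
Pooled signal value of each summit (vertical axis) by its distance in kb from the first Diap1 start, downstream to the right, with reproducible summits in blue, those of the pooled list alone in grey, the gene as a black box and its 5 starts as arrowheads. The strongest pair, at signal values of 2132.5 and 2118, lies inside the gene between the starts.

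At least 1 of the core, ACAAAGT and the longer consensus was found at 3 of the 12 Diap1 summits, against 15.4% of all reproducible summits. The strongest summit had ACAAAGT as part of a match to the longer consensus, on the opposite strand and near the left edge of the 101 bases. The summit 1475 bp downstream of the start at 4188 bp had the core, and a secondary summit just beyond the end of the gene, with a signal value of 275, had ACAAAGT. The second strongest summit had none of them. These sequences show the 3 matches and, last, the strong summit without one.
strongest Diap1 summit (chr3L:16048892-16048992): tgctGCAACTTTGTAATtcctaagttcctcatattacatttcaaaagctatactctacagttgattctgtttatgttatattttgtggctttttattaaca
1475 bp downstream of the Diap1 start at 4188 bp (chr3L:16045321-16045421): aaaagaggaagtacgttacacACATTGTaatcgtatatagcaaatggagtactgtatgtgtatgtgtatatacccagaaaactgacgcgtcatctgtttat
beyond the Diap1 end (chr3L:16038119-16038219): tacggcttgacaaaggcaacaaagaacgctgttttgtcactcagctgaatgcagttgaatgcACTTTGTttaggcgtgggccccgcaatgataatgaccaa
669 bp downstream of the Diap1 start at 4188 bp (chr3L:16046127-16046227): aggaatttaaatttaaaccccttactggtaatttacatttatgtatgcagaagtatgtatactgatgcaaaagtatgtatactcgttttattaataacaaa

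The reproducible summits of the caspase genes were weaker than the strongest ones at Debcl, Diap1 and hid. They lay at promoters, in part those of the neighbours Etfb, pita and wmd. Drice, an effector caspase (FBgn0019972, 3R 29799658 to 29801584, plus strand), had a promoter summit 57 bp upstream of its start with a signal value of 600 and ranks of 7685, 3092, 4557 and 2351 in replicates 1 to 4 (4421 ± 2361). A stronger one, with a signal value of 1037, lay beyond the end of Drice and 56 bp upstream of the start of its neighbour Etfb, at ranks of 1487, 1051 and 1227 in replicates 1, 2 and 4. Replicate 3 had no summit within 100 bp of it, and its best summit near Drice was that at the promoter. Neither summit held a Doublesex motif, and the promoter sequence is shown as that of the only caspase promoter with support in all 4 replicates.
Drice promoter summit (chr3R:29799551-29799651): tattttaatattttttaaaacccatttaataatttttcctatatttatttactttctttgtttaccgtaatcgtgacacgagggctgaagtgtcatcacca

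Dcp-1, the other effector caspase (FBgn0010501, 2R 23551313 to 23553547, plus strand), had a summit 204 bp downstream of its start. That summit lay 34 bp downstream of the start of the neighbouring gene pita, so it belongs to either promoter by position. Its signal value was 365 and its ranks were 5446, 4734, 7214 and 14959 in replicates 1 to 4 (8088 ± 4698). A second, 3444 bp upstream of Dcp-1 and at the promoter of wmd, had a signal value of 345 and was matched in replicates 3 and 4. Replicates 1 and 2 had summits 144 and 119 bp from it, at ranks 4177 and 6991. Neither of the Dcp-1 summits was supported within 100 bp by the strongest 10000 of all 4 replicates.

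Dronc, the initiator caspase (FBgn0026404, 3L 9968479 to 9971002, plus strand), had no reproducible summit within 5 kb. The pooled list had 2, both beyond the gene. They lay 3601 and 4207 bp downstream of the start, with signal values of 239 and 89.3 at ranks 9775 and 21883. Summits at the Dronc promoter were present in replicate 3, 111 bp upstream at rank 4371, and in replicate 4, 27 bp upstream at rank 5788. Replicates 1 and 2 had none at the promoter, and their best summits, at ranks 11513 and 14608, lay 4228 and 4241 bp downstream of the start. The replicates thus split in pairs at the Dronc promoter, where the pooled list had no summit. At the stronger pooled summit beyond the gene all 4 replicates had a summit within 100 bp. Its ranks were 12916, 15703, 8078 and 7384 in replicates 1 to 4.

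The Bcl-2 family genes differed from each other. Debcl, which promotes death (FBgn0029131, 2R 6648654 to 6652842, plus strand), had the strongest summit of all 10 genes, with a signal value of 3282 at rank 169. It lay 2810 bp upstream of Debcl and nearer, at 746 bp, to the start of Fmo-2, a flavin-containing monooxygenase gene. It was found within 17 bp in each replicate, and both the core and the longer consensus were present 3 bp from the summit. A second summit at the Fmo-2 promoter, 63 bp upstream of that gene, had a signal value of 654 and ranks of 1666, 1711, 5330 and 4335 in replicates 1 to 4 (3261 ± 1860). The promoter of Debcl itself had a summit 142 bp downstream of the start, with a signal value of 285 and ranks of 7265, 6200, 8619 and 10171 (8064 ± 1719). The strength assigned to Debcl thus came from a site closer to another gene, and its own promoter ranked among the weaker sites. The fourth summit, at the promoter of the neighbour Opbp, was matched in replicates 1 and 2, and replicate 3 had one 163 bp away. Buffy (FBgn0040491, 2R 11679492 to 11688557, plus strand) had 1 reproducible summit, 95 bp upstream of its neighbour CG13197 and beyond the end of Buffy, with a signal value of 382 and ranks of 11925, 4452 and 3926 in replicates 2, 3 and 4. Replicate 1 had a summit 153 bp from it, at rank 9817. At the start of Buffy, weak summits appeared in replicate 2, 65 bp upstream at rank 23102, and in replicate 3, 266 bp upstream at rank 16968.

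Over all 52 summits the median signal value was 573, against 463 for all reproducible summits. Replicate 1 supported 43 of the 52 (82.7%), against 74.0% of all reproducible summits. For replicate 2 the number was 42 (80.8%, against 81.5%), for replicate 3 it was 45 (86.5%, against 85.8%) and for replicate 4 it was 42 (80.8%, against 83.1%). All 4 replicates supported 27 of them (51.9%), against 53.2%. By location 28 were intergenic, 15 at promoters, 7 in introns and 1 each in a 5′ and a 3′ untranslated region. The Doublesex core was present at 4 (7.69%, exact 95% interval 2.14 to 18.5%), against 8.06% of all, ACAAAGT at 3, against 6.84% of all, and the longer consensus at 2 (3.85%), against 6.07%. The GAGA factor motif GAGAG was present at 9 (17.3%), against 15.4%. At the summit upstream of Diap1 in the untranslated region of Mbs there were 6 matches of it, most of them overlapping. The sequences TATCGATA, TTTATGG and AGGTCA were at 0 of the 52, against 0.776%, 2.71% and 1.73% of all reproducible summits. With a window of 25 bp the core was present at 1 of the 52 (1.92%, exact 95% interval 0.0487 to 10.3%), against 4.80% of all, and with 100 bp at 6 (11.5%, 4.35 to 23.4%), against 10.9%. At each of the 3 windows the share of the whole list lay within the interval of the 52.

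Of 34 other genes of the death pathway, listed by role, 27 had a reproducible summit within 5 kb (79.4%), against 52.4% of all coding genes, and 15 had one within 1 kb of a start, against 26.2%. All 11 genes of stress and JNK input had one, as did all 4 of the apoptosome and cytochrome c, 3 of 4 other caspases, 5 of 6 engulfment genes, 2 of 4 of DNA breakdown, 1 of 3 other inhibitors and 1 of 2 other antagonists. Of the 11 stress and JNK genes, 3 had one inside the gene, against 16.4% of all coding genes, and 4 within 1 kb of a start, against 26.2%. For most of these 11 the strongest summit lay in or at a neighbouring gene. The strongest belonged to puc, the phosphatase that feeds back on JNK, with a signal value of 3169, 34 bp upstream of a start, ranks of 345, 105, 263 and 279 in replicates 1 to 4, and 12 summits within 5 kb. The JNK gene bsk followed with 2430, 98 bp upstream, at ranks of 1334, 497, 240 and 182. The summit of Cyt-c-p, a cytochrome c gene, lay in its own intron with a signal value of 1947 and is also the one counted for the neighbouring Cyt-c-d.

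In the remaining classes, too, the strongest sites lay partly at the death gene and partly at a neighbour. The summit counted for Prx4, the gene listed as Jafrac2, had a signal value of 2015 and lay at scramb2, and that for Diap2, a relative of Diap1, had 1048 and lay in an intron of bdg. Among engulfment genes mbc had 1257 and ced-6 had 1210, both in their own introns. Among DNA breakdown genes EndoG had 776, at a neighbouring promoter with the Doublesex core, and DNaseII had 555, 102 bp upstream of its own start. The caspase genes Dredd and Decay had 405 and 396, in and near other genes.

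**Figure D5:**
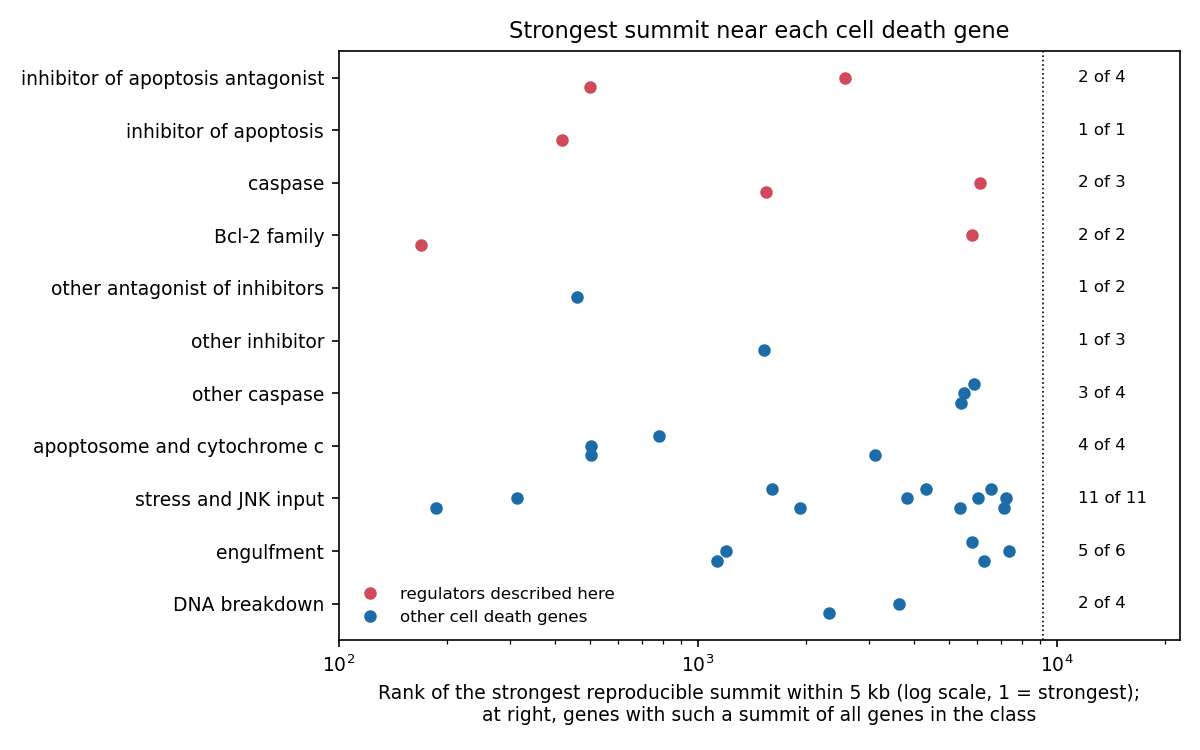
Rank of the strongest reproducible summit within 5 kb of each gene (log axis, rank 1 is the strongest), in red for the 10 regulators and in blue for 34 other cell death genes by class, with the number of genes that have such a summit at right and the end of the reproducible list dotted. The 5 strongest blue points, between ranks 187 and 504, belong to puc, bsk, Prx4, Cyt-c-p and Cyt-c-d, of which the last 2 share a summit.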

How the data were processed

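Peak summits of 4 ChIP-seq samples of 1 group were used. Per the deposited text notes, the lists are on dm6, 1 control file entered each call, replicates 2, 3 and 4 made up the pool, and their lists with the pooled one gave the reproducible list, so replicate 1 entered neither. The aligner and peak caller were not given in the sources used here, nor was the threshold. The signal score of each peak was deposited by the authors and is not normalized between lists. The deposited −log10 q-value reaches a common ceiling and was not used for ranking. The summit position was taken from the offset in bp in the deposited lists and is given 1-based. Reproducible summits equal the top 9154 pooled ones, so their ranks in both lists are the same.

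Gene models were from Ensembl release 115 and sequence from RefSeq, both dm6. All 10 gene spans were the same in RefSeq, and 0 summits lay outside the arms. A gene's span was extended by 5 kb on each side. A replicate supported a summit when it had one within 100 bp among its strongest 10000. Promoters were within 500 bp of a start. Windows did not overlap, and their counts are descriptions. Intervals are exact (Clopper-Pearson, 95%) and cover counting error over summits only. Of other death genes, at most 2 per class, those with the strongest summit, were named. The lookups were tested on simulated data. Python 3.11.15, pandas 2.3.3 and scipy 1.17.1 were used. Genes, lists and settings were chosen with earlier results of these data known. Alternatives covered the list, the distance, the match, the motif and each replicate left out.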

Additional observations from a re-analysis of the deposited data

Results flagged for a closer look

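Over 22 measures of the 4 replicates, Dixon's ratio (gap of the extreme replicate over the whole range) passed its 95% critical value for 2. The number of summits within 5 kb of grim was 0, 0, 0 and 1 in replicates 1 to 4, and that of skl was 0, 0, 0 and 2, so the ratio was 1.0 in both cases. Replicate 4 stood apart in both, with summits at ranks 24854 for grim and 22448 and 27112 for skl, near the weak end of a list of 30000. With 3 equal values any other value in the fourth is flagged, and chance flags about 1 in 20 groups.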

How the results depend on the processing

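With summits inside the gene alone, 4 of the 10 genes had a reproducible summit in place of 7. The other settings gave 5 to 8. Support in all 4 replicates was found for 3 genes, not 5, with a match within 50 bp and for 3 with the strongest 5000, and for 5 to 6 with a replicate left out. The 52 summits became 165 in the pooled list and 31 among the 4577 strongest reproducible ones. The density from hid to skl, 11.4 per 100 kb, became 43.7 and 7.35 in those lists and 14.1 over the strongest 10000 of each replicate (13.3 to 14.9 with one left out). These lists differ in length, and the density over all arms was 22.4 in the pooled list and 7.46 over the strongest 10000, against 6.84. The cause of the remaining difference was not tested. The core share of 7.69% became 1.92% within 25 bp, where that of all reproducible summits was 4.80%. The mean rank of rpr became 6767 within 2 kb, that of hid 6471 inside the gene, and that of Debcl 8064 inside the gene and 7714 within 2 kb. With a replicate left out, mean ranks ranged from 2358 to 3669 for rpr, 515 to 612 for hid, 305 to 364 for Diap1, 7224 to 10636 for Dronc, 1255 to 2424 for Drice, 5162 to 6729 for Dcp-1, 157 to 201 for Debcl and 5322 to 7286 for Buffy. Inside the gene there was no rank over 4 replicates for rpr, Dronc, Drice and Buffy, for Buffy also none within 2 kb, and for grim and skl none at all. No paired analysis of groups was possible because there is 1 group, and the pairs tested were 2 stretches of the same replicate. Read depth was unknown, and summits of a mixed-sex whole animal give no sex or cell type.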
